A study of Homo sapiens with 22 samples.

Results

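The genes described here encode the aminoacyl-tRNA synthetases, the enzymes that join each amino acid to its transfer RNA. The 37 members were taken, of 28063 gene symbols in each table, by the form of the symbol: 1 letter for the amino acid followed by ARS, with or without a closing 1 or 2, together with FARSA, FARSB, EPRS or EPRS1. The rule reads symbols and no measured value, but the family was taken up with earlier results of these data known. Of the 37 genes, 18 encode cytosolic enzymes, 17 encode mitochondrial enzymes, and GARS and KARS supply both compartments. The files use older symbols, so that AARS, DARS, EPRS and WARS, among others, are the genes now written with a closing 1.

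Polyadenylated RNA was sequenced from 3 human acute myeloid leukaemia lines, MOLM-13, MV-4-11 and THP-1, which all carry a rearranged KMT2A gene. Cells were given 1 µM BRM014, which blocks SMARCA4 and SMARCA2, the motor subunits of SWI/SNF chromatin remodellers, for 72 h or 24 h in each line, and in THP-1 also 10 nM PMA (a phorbol ester that drives macrophage-like differentiation) for 48 h with 24 h of rest, and 3 µM DB2313, which keeps the myeloid transcription factor PU.1 off DNA, for 72 h. Each line also had DMSO, the vehicle, and the labels give every library the marker WT. The 22 libraries form 11 groups of 2, so p-values rest on the spread between replicate libraries, pooled over the groups, which may be technical. On the mean of lines, p-values and standard errors leave out the spread of the effect between lines. The labels used here give no duration for DMSO, so a treatment cannot be told apart from time in culture, and all comparisons within a line share the same 2 DMSO libraries. The sample records of the DB2313 libraries are numbered apart from all the others, and no DMSO library is numbered with them. Whether they were a separate batch is not stated in the labels, so DB2313 cannot be told apart from a possible batch.

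Synthetases supply every ribosome with charged tRNA, and the cytosol and the mitochondrion mostly use separate nuclear genes for the same amino acid. Some cytosolic enzymes sit together on 3 scaffold proteins in the multisynthetase complex. Uncharged tRNA activates the kinase GCN2, which phosphorylates eIF2 and raises translation of ATF4, a transcription factor that binds C/EBP-ATF elements at many cytosolic synthetase genes, while MYC raises many genes of the translation machinery and interferon-gamma induces WARS. In bulk samples, fewer cells of a kind and less RNA per cell cannot be told apart.

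Each library held 15893489 to 21565666 reads in genes, and replicate libraries correlated at r between 0.98 and 0.9934 on log2 CPM (counts scaled to the reads in genes). Myeloid markers, 8 listed, were found in every group and summed to between 1035 CPM in THP-1 cells at 72 h of BRM014 and 10650 CPM with PMA. At 72 h of BRM014 they summed to 2878 and 2747 CPM in MOLM-13 against 1802 and 1965 CPM with DMSO, to 1307 and 1316 CPM in MV-4-11 against 1462 and 1441 CPM with DMSO, and to 1035 and 1044 CPM in THP-1 against 3370 and 3203 CPM with DMSO. Gene by gene, 5 of the 8 fell and 3 rose in MOLM-13 (edgeR adjusted p under 0.05, median log2 fold change -0.98). In MV-4-11 7 fell and 1 rose (median -1.49), and in THP-1 7 fell and 0 rose (median -1.39). Of all genes tested, 29.4%, 26.1% and 28.0% fell in these 3 lines and 30.3%, 28.4% and 30.9% rose. Erythroid markers summed to 4.10 to 53.1 CPM and lymphoid markers to 1.235 to 15.95 CPM. The 8 epithelial and fibroblast markers summed to 151 and 155 CPM in THP-1 cells at 72 h of BRM014 and to 81.0 and 85.5 CPM with DB2313, against 3.82 and 4.45 CPM with DMSO, with COL1A2 and COL3A1 at 0 in those 3 groups, and the part of these markers in the synthetase results was not tested. The PMA replicates differed most from each other, at 32.7 units of chi-square per degree of freedom over genes, where the other groups lay between 3.23 and 11.4.

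All 37 members passed the filter on low counts, with 16794 genes tested, but VARS, VARS2 and CARS could not be read reliably. Replicates of VARS differed by up to 22.8-fold, those of VARS2 by up to 10.9-fold and those of CARS by up to 2.35-fold. For the other 34 members the largest difference between replicates ran between 1.07-fold and 1.63-fold, with a median of 1.201. VARS and VARS2 lie in the major histocompatibility region of chromosome 6, where 22 of the 49 protein-coding genes from VARS2 to VARS (44.9%) had under 10 counts in every library, against 22.7% of all protein-coding genes. Of the 15 genes there at 1 CPM or more on average, 7 (46.7%) had a replicate pair more than 2 log2 units apart. Of all 12478 protein-coding genes at that level, 3.15% did. The cause of that spread was not tested. Counts of members below include these 3 genes, which passed the test in 1 comparison only.

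Per kilobase of exon, so that genes of different length can be compared, the order of levels under DMSO was led by FARSA in MOLM-13 (136 ± 12.5 CPM per kb, SD, n = 2) and MV-4-11 (115 ± 1.17) and by EPRS in THP-1 (129 ± 3.42). FARSA encodes the alpha subunit of cytosolic phenylalanyl-tRNA synthetase, and EPRS is a single chain that charges both glutamate and proline tRNA. AARS (91.9 ± 1.65 CPM per kb) and EPRS (82.9 ± 10.7) came next in MOLM-13, and EPRS (94.6 ± 0.114) and QARS (90.8 ± 1.79) in MV-4-11. In THP-1 the second was a mitochondrial member, IARS2, at 82.96 ± 2.35 CPM per kb, followed by FARSA at 72.1 ± 4.69. The order depends on the length used: divided by the longest transcript, the first 3 were FARSA, QARS and GARS in MOLM-13, QARS, FARSA and KARS in MV-4-11, and EPRS, KARS and IARS2 in THP-1. AARS and NARS, the alanine and asparagine enzymes, did not differ beyond their spread in THP-1, at 65.3 ± 1.40 and 65.3 ± 1.39 CPM per kb. The lowest levels outside VARS, VARS2 and CARS were mitochondrial: WARS2 had 4.35, 6.16 and 4.08 CPM per kb, PARS2 had 3.69, 4.98 and 3.33 CPM per kb and FARS2 had 4.58, 3.43 and 1.92 CPM per kb in MOLM-13, MV-4-11 and THP-1.

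**Figure D1:**
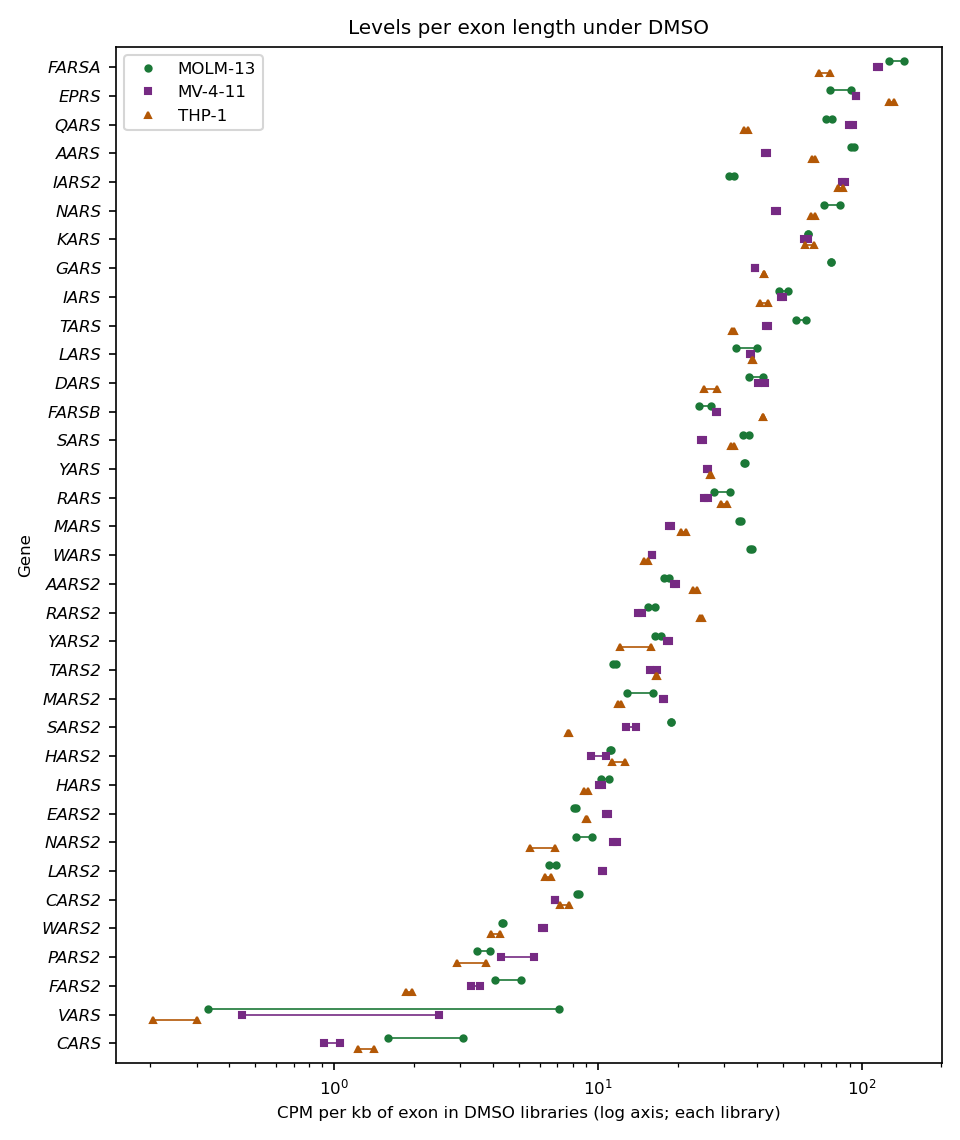
Level of 35 synthetase genes per kilobase of exon in DMSO libraries of MOLM-13, MV-4-11 and THP-1 (log axis, CPM per kb), with each library as a point and a line joining the 2 replicates; VARS2, listed at 0 in a THP-1 library, is not drawn. FARSA and EPRS lie among the highest 3 genes and CARS, VARS, FARS2 and PARS2 among the lowest in all 3 lines.

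Most synthetase genes fell under BRM014, and their median was lower at 72 h than at 24 h. On the mean of the 3 lines, 31 of the 37 members fell and 2 rose at 72 h (edgeR quasi-likelihood test, adjusted p under 0.05), where 30.4% of all genes tested fell and 34.9% rose. At 24 h 27 fell and 2 rose, where 27.1% of all genes fell and 28.9% rose. The median log2 fold change of the members was -0.83 at 72 h and -0.55 at 24 h, beside 0.07 and 0.03 for all genes. Scaling by library size alone shifted the fold changes of all genes up by 0.11 at 72 h and by 0.08 at 24 h on the mean of lines, and the members' medians were then -0.72 and -0.46. FARSA, WARS and MARS2 fell the most at both times, and RARS2 was the only member that rose at both.

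Summed over the 37 genes, synthetase RNA took 2702 and 2705 CPM in MOLM-13 at 72 h and 3416 and 3372 CPM at 24 h, against 5807 and 5472 CPM with DMSO. In MV-4-11 the sums were 3447 and 3457 CPM at 72 h and 4229 and 4213 CPM at 24 h, against 5083 and 5095 CPM with DMSO. THP-1 cells had 3084 and 3033 CPM at 72 h and 3460 and 3485 CPM at 24 h of BRM014, 4501 and 4634 CPM with PMA and 2914 and 2907 CPM with DB2313, against 4921 and 4998 CPM with DMSO. In each line the 2 BRM014 groups lay below DMSO with no overlap, and 72 h below 24 h. The cytosolic genes held most of the sum under DMSO and also made most of the difference in CPM. In MOLM-13 their sum was 1941 and 1959 CPM at 72 h against 4413 and 4114 CPM with DMSO, while the mitochondrial sum was 587 and 580 CPM against 824 and 789 CPM. In MV-4-11 the 2 sums fell in near proportion. There the cytosolic sum was 2415 and 2411 CPM against 3522 and 3525 CPM, and the mitochondrial sum 777 and 785 CPM against 1153 and 1154 CPM. In THP-1 the cytosolic sum was 2010 and 1950 CPM against 3430 and 3463 CPM, and the mitochondrial sum 856 and 856 CPM against 1067 and 1091 CPM.

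**Figure D2:**
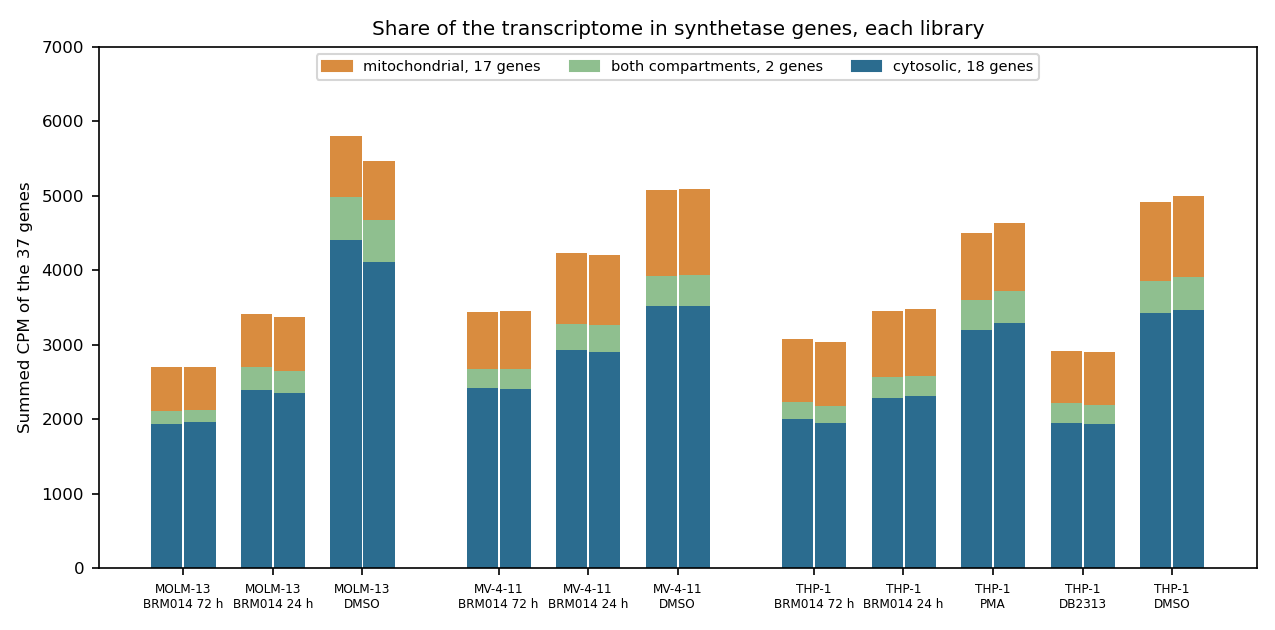
Summed CPM of the 37 synthetase genes in each of the 22 libraries, stacked by compartment (18 cytosolic genes, 2 genes that serve both compartments, 17 mitochondrial genes), with 1 bar per library and the treated groups left of DMSO within each line. Every BRM014 bar is shorter than the DMSO bars of its line, and the shortest THP-1 bars are those of DB2313.

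By compartment, the median log2 fold change at 72 h was -1.16 for the 18 cytosolic genes, of which 15 fell and 1 rose, and -0.60 for the 17 mitochondrial genes, of which 14 fell and 1 rose. Medians at 24 h were -0.57 for the cytosolic genes, with 14 falling and 1 rising, and -0.28 for the mitochondrial genes, with 11 falling and 1 rising. Over all genes tested, 30.4% fell and 34.9% rose at 72 h, and 27.1% and 28.9% at 24 h. Within lines at 72 h, MOLM-13 had medians of -1.67 (cytosolic) and -0.82 (mitochondrial), MV-4-11 of -0.66 and -0.64, and THP-1 of -1.03 and -0.28, and the difference between compartments was not tested. Synthetases fall into 2 structural classes by their catalytic fold. Of class I and class II members 14 of 18 and 16 of 18 fell at 72 h, beside 30.4% of all genes, with medians of -0.96 and -0.65.

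Within single lines the counts against DMSO were as follows. In MOLM-13, 31 members fell and 2 rose at 72 h, beside 29.4% and 30.3% of all genes, and 25 fell and 1 rose at 24 h, beside 23.5% and 22.7%. In MV-4-11, 26 fell and 2 rose at 72 h, beside 26.1% and 28.4% of all genes, and 18 fell and 4 rose at 24 h, beside 22.4% and 23.6%. In THP-1, 24 fell and 0 rose at 72 h, beside 28.0% and 30.9% of all genes, and 26 fell and 1 rose at 24 h, beside 24.1% and 25.9%. The share of members that fell was above the share of all genes in each of these comparisons, and the share that rose below it. The few rises depended on single libraries and on the scaling: without either MV-4-11 DMSO library 1 member rose there at 24 h, scaling by library size alone gave 17 falls and 7 rises in that comparison, and the same scaling gave 2 rises in THP-1 at 72 h, 3 in THP-1 at 24 h and 2 in MOLM-13 at 24 h. In MV-4-11 at 24 h 2 members rose without the first BRM014 library, and 7 on that line's libraries alone. In MOLM-13 at 72 h 1 member rose without the first BRM014 library, without either DMSO library or with no filter. In THP-1 at 24 h 0 rose without the first BRM014 library, without either DMSO library or on that line's libraries alone, and 2 with DESeq2 or with no filter. On the mean of lines at 72 h 1 rose with no filter.

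At 72 h 21 members fell in all 3 lines, beside 14.5% of all genes tested, and at 24 h 15 did, beside 9.49%. Of these, 13 were on both lists, beside 7.61% of all genes, with the same DMSO libraries at both times, among them EPRS, FARSA, FARSB, KARS, LARS, MARS2 and WARS. No member rose in all 3 lines at either time, where 13.5% of all genes did at 72 h and 9.12% at 24 h. The only members that passed the test in no line at 72 h were CARS, VARS and VARS2, and at 24 h FARS2 and SARS2 joined them. The size of the effect differed between lines, by an F test across the 3 lines, for 27 members at 72 h and 25 at 24 h, beside 52.9% and 43.5% of all genes tested.

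**Figure D3:**
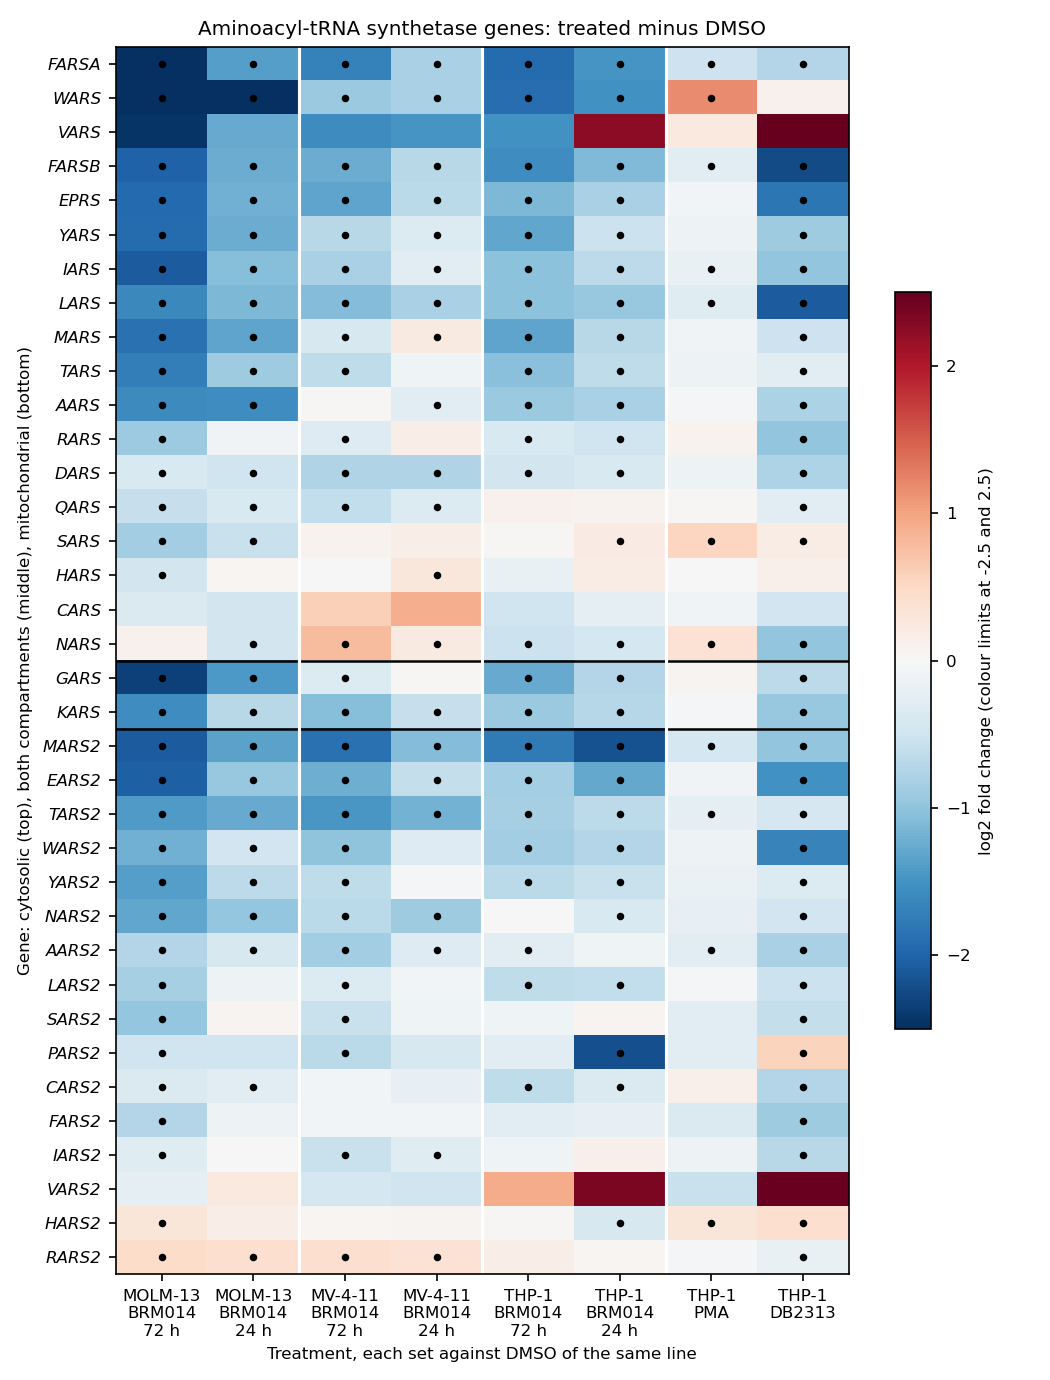
log2 fold change of 36 synthetase genes against DMSO of the same line (colour, limits at -2.5 and 2.5) for BRM014 at 72 h and 24 h in 3 lines and for PMA and DB2313 in THP-1, with genes grouped by compartment and ordered within it by the mean change at 72 h; a black dot marks an edgeR adjusted p under 0.05. FARSA and WARS head the cytosolic block and MARS2 the mitochondrial block, RARS2 is the last row, and the PMA column holds the fewest dots.

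The 2 genes of cytosolic phenylalanyl-tRNA synthetase, FARSA at chr19:12922479-12934037 (minus strand, hg38) for the alpha chain and FARSB for the beta chain, fell in every line. FARSA had 62.9 and 66.4 CPM at 72 h and 134 and 143 CPM at 24 h in MOLM-13, against 309 and 352 CPM with DMSO. In MV-4-11 it had 84.5 and 96.1 CPM at 72 h and 168 and 166 CPM at 24 h, against 282 and 278 CPM with DMSO. THP-1 libraries held 47.2 and 50.8 CPM at 72 h and 66.7 and 63.2 CPM at 24 h of BRM014, 96.7 and 133 CPM with PMA and 116 and 107 CPM with DB2313, against 168 and 184 CPM with DMSO. The order 72 h below 24 h below DMSO held in all 3 lines with no overlap, and both other THP-1 treatments also lay below DMSO. The log2 fold change of FARSA on the mean of lines was -2.06 ± 0.07 (SE) at 72 h (edgeR adjusted p = 7.34e-16) and -1.23 ± 0.07 at 24 h (edgeR adjusted p = 3.83e-12).

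FARSB had 23.0 and 25.1 CPM at 72 h and 38.8 and 40.3 CPM at 24 h in MOLM-13, against 89.9 and 81.5 CPM with DMSO. Its MV-4-11 values were 42.5 and 41.1 CPM at 72 h and 60.5 and 62.1 CPM at 24 h, against 94.7 and 94.1 CPM with DMSO. In THP-1, FARSB had 51.6 and 51.0 CPM at 72 h and 66.9 and 69.3 CPM at 24 h of BRM014, 106 and 115 CPM with PMA and 31.1 and 32.0 CPM with DB2313, against 142 and 142 CPM with DMSO. The groups did not overlap in any line, and DB2313 gave the lowest FARSB of all THP-1 groups. On the mean of lines FARSB fell, with a log2 fold change of -1.60 ± 0.04 at 72 h (edgeR adjusted p = 1.74e-17) and -1.01 ± 0.04 at 24 h, and of -2.24 ± 0.08 with DB2313 (edgeR adjusted p = 4.89e-15). The mitochondrial enzyme for the same amino acid, FARS2, is 1 gene and changed by -0.35 on the mean of lines at 72 h (edgeR adjusted p = 0.0158), a call lost without the first MOLM-13 DMSO library (adjusted p = 0.0558) or the first THP-1 library of 72 h (adjusted p = 0.0669).

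All 8 synthetases of the multisynthetase complex (DARS, EPRS, IARS, KARS, LARS, MARS, QARS and RARS) fell on the mean of lines at both times, with medians of -1.19 at 72 h and -0.63 at 24 h. Of the 12 other genes whose enzymes work in the cytosol, 9 fell and 1 rose at 72 h and 8 fell and 1 rose at 24 h, with medians of -1.22 and -0.63. Over all genes tested, 30.4% fell and 34.9% rose at 72 h, and 27.1% and 28.9% at 24 h. The 3 scaffold genes AIMP1, AIMP2 and EEF1E1 also fell at both times, with fold changes of -1.70 for EEF1E1 and -0.96 for AIMP2 at 72 h. Within the complex the range at 72 h ran between -0.36 for QARS, the glutamine enzyme, and -1.46 for EPRS. RARS, the arginine enzyme, had the smallest fall at 24 h, -0.14 (edgeR adjusted p = 0.0177), which was lost under 5 of the alternatives, 4 of them the removal of 1 library (the first DMSO library of MOLM-13, MV-4-11 or THP-1, or the second THP-1 library of 24 h; adjusted p between 0.0503 and 0.0779).

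EPRS had 128 and 139 CPM at 72 h and 217 and 214 CPM at 24 h in MOLM-13, against 493 and 410.4 CPM with DMSO. In MV-4-11 EPRS had 219 and 211 CPM at 72 h and 358 and 325 CPM at 24 h, against 516 and 515 CPM with DMSO. In THP-1 it had 344 and 342 CPM at 72 h and 412 and 422 CPM at 24 h of BRM014, 649.7 and 620.0 CPM with PMA and 211 and 216 CPM with DB2313, against 691 and 717 CPM with DMSO. The 3 groups of each line were again in the order 72 h, 24 h, DMSO, low to high, and DB2313 was lowest in THP-1. The fold change of EPRS was -1.46 ± 0.04 at 72 h (edgeR adjusted p = 5.55e-17) and -0.89 ± 0.04 at 24 h on the mean of lines, and -1.80 ± 0.08 with DB2313 (edgeR adjusted p = 8.80e-14).

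LARS, the leucine enzyme, which also acts as a leucine sensor upstream of mTORC1, had 108 and 115 CPM at 72 h and 152 and 145 CPM at 24 h in MOLM-13, against 325 and 270.1 CPM with DMSO. Its levels in MV-4-11 were 148 and 154 CPM at 72 h and 187 and 182 CPM at 24 h, against 307 and 306 CPM with DMSO. In THP-1 LARS had 169 and 156 CPM at 72 h and 160.0 and 173 CPM at 24 h of BRM014, 247 and 231 CPM with PMA and 80.2 and 75.6 CPM with DB2313, against 313 and 311 CPM with DMSO. The 2 BRM014 times overlapped in THP-1 and not in the other lines, and every treated group lay below DMSO. LARS fell, with a log2 fold change of -1.24 ± 0.04 at 72 h (edgeR adjusted p = 1.45e-15) and -0.96 ± 0.04 at 24 h on the mean of lines, and of -2.08 ± 0.08 with DB2313 (edgeR adjusted p = 2.57e-14).

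KARS and GARS each supply both compartments. KARS, the lysine enzyme and a complex member, had 102 and 94.8 CPM at 72 h and 176 and 167 CPM at 24 h in MOLM-13, against 255 and 253 CPM with DMSO. KARS in MV-4-11 had 119 and 128 CPM at 72 h and 172 and 179 CPM at 24 h, against 245 and 253 CPM with DMSO. KARS in THP-1 had 143 and 146 CPM at 72 h and 166 and 157 CPM at 24 h of BRM014, 227 and 250.6 CPM with PMA and 149.5 and 134 CPM with DB2313, against 248 and 267 CPM with DMSO. Every BRM014 group and DB2313 lay below DMSO without overlap, and PMA overlapped DMSO. The fold change was -1.18 ± 0.05 at 72 h (edgeR adjusted p = 7.29e-15) and -0.66 ± 0.05 at 24 h, and the line difference passed the test at 72 h (edgeR adjusted p = 2.48e-04) and not at 24 h (adjusted p = 0.545).

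GARS, the glycine enzyme, had 72.5 and 70.7 CPM at 72 h and 123 and 130.5 CPM at 24 h in MOLM-13, against 316 and 316 CPM with DMSO. In MV-4-11 GARS had 136 and 132 CPM at 72 h and 175 and 176 CPM at 24 h, against 163 and 163 CPM with DMSO. In THP-1 GARS had 76.0 and 81.2 CPM at 72 h and 112 and 108 CPM at 24 h of BRM014, 172 and 176 CPM with PMA and 119 and 116 CPM with DB2313, against 176 and 177 CPM with DMSO. In MOLM-13 and THP-1 both BRM014 groups lay below DMSO, while in MV-4-11 the 24 h libraries lay slightly above it. The fold changes at 24 h were -1.44 ± 0.06 in MOLM-13, 0.03 ± 0.06 in MV-4-11 (adjusted p = 0.733) and -0.73 ± 0.06 in THP-1, and differed between lines (edgeR adjusted p = 6.32e-10). At 72 h GARS fell in all 3, with fold changes of -2.33, -0.34 and -1.25.

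WARS, the tryptophan enzyme at chr14:100333788-100376805 (minus strand, hg38), is known as an interferon-gamma-induced gene. In MOLM-13 WARS had 35.5 and 39.6 CPM at 72 h and 43.9 and 47.2 CPM at 24 h, against 239 and 244 CPM with DMSO. In MV-4-11 it had 57.6 and 53.2 CPM at 72 h and 60.3 and 61.0 CPM at 24 h, against 101 and 102 CPM with DMSO. In THP-1 it had 29.5 and 25.1 CPM at 72 h and 36.9 and 33.3 CPM at 24 h of BRM014, 209 and 203 CPM with PMA and 111 and 107 CPM with DB2313, against 94.8 and 97.98 CPM with DMSO. BRM014 left WARS below DMSO in all 3 lines, with the 72 h libraries below those of 24 h, while PMA libraries held more than 2 times the DMSO level. WARS fell, with a log2 fold change of -1.90 ± 0.05 at 72 h (edgeR adjusted p = 7.78e-18) and -1.62 ± 0.05 at 24 h on the mean of lines, beside its MOLM-13 value (-2.88 at 72 h). It rose by 1.18 ± 0.08 with PMA (edgeR adjusted p = 4.14e-10). With DB2313 its fold change was 0.10 ± 0.08 (adjusted p = 0.29), and the difference between BRM014 at 72 h and DB2313 was -2.00 ± 0.09 (edgeR adjusted p = 1.29e-13).

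The second of the 2 start sites of WARS in RefSeq (GRCh38.p14) is shown because interferon response is what this gene is known for. The window covers 250 bases before to 50 bases after the start, reads 5′ to 3′, and has in capitals a match to the interferon-stimulated element core (GAAANNGAA) at position -55 and a match to the gamma-activated site (TTCNNNGAA) at position -142.
WARS chr14:100375298-100375597 minus strand: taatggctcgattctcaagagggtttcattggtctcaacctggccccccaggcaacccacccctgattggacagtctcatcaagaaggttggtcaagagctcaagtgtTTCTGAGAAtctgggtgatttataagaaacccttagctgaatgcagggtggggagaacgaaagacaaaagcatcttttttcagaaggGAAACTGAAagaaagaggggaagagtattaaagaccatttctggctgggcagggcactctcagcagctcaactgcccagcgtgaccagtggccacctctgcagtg
The core was found, searching both strands, in 5 of 39 member windows (12.8%) and 8.11% of 35116 windows of all genes, and the gamma-activated site in 7 (17.9%) and 7.66%. A match of these letters is a description and not a site of binding. IRF1, which binds the interferon element, changed by 0.34, 1.01 and -0.47 in MOLM-13, MV-4-11 and THP-1 at 72 h, by 0.46 with PMA and by 1.60 with DB2313, all past the test. Of 13 interferon-gamma response genes tested, 7 fell and 3 rose on the mean of lines at 72 h (median -0.76), beside 30.4% and 34.9% of all genes. By line at 72 h 6 of the 13 fell and 3 rose in MOLM-13, beside 29.4% and 30.3% of all genes. For MV-4-11 the counts were 3 falls and 3 rises, where 26.1% of all genes fell and 28.4% rose. THP-1 gave 7 falls and 0 rises, with all-gene shares of 28.0% and 30.9%. With PMA 0 fell and 8 rose (median 1.13), beside 17.1% and 18.9% of all genes, and with DB2313 1 fell and 5 rose (median 0.71), beside 29.5% and 35.9%.

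ATF4 elements were looked for next, since they mark the amino acid response at synthetase genes. The C/EBP-ATF element TGATGNAA was found, on either strand, in the windows of 8 members, or 8 of 39 windows (20.5%), against 3.62% of all windows. The stretches below show it in capitals with its neighbours, from RefSeq (GRCh38.p14), each 5′ to 3′ on the strand that reads TGATG.
AARS chr16:70289666-70289713 plus strand: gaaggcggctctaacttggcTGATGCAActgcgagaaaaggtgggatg
CARS chr11:3057398-3057445 plus strand: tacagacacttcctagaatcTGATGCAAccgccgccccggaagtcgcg
GARS chr7:30594825-30594872 minus strand: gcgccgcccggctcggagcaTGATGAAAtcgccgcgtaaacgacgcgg
IARS chr9:92293683-92293730 plus strand: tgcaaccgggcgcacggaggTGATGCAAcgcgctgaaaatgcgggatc
MARS chr12:57488044-57488091 minus strand: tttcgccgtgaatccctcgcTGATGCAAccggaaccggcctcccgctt
NARS chr18:57621795-57621842 minus strand: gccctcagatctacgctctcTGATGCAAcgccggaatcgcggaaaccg
TARS chr5:33440947-33440994 minus strand: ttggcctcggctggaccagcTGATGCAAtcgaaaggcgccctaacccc
YARS2 chr12:32756067-32756114 minus strand: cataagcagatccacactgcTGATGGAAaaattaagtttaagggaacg
The pattern fixes every letter but the open position, so the 8 elements could differ only there: 6 read C, GARS reads A and YARS2 reads G. Windows of the same length were found for 30 of the 37 members. Of these 8 members, 6 fell and 1 rose at 72 h and 7 fell and 0 rose at 24 h on the mean of lines, with medians of -1.02 and -0.57. Of the 22 members with a window and no element, 20 fell and 1 rose at 72 h and 15 fell and 2 rose at 24 h, with medians of -0.57 and -0.40. Over all genes tested, 30.4% fell and 34.9% rose at 72 h, and 27.1% and 28.9% at 24 h. By line at 24 h, the 8 genes had 7 falls and 0 rises in MOLM-13 (median -0.98). The 22 had 13 falls and 1 rise there (median -0.49), beside 23.5% and 22.7% of all genes. THP-1 gave 7 falls and 0 rises for the 8 genes (median -0.65). For the 22 it gave 15 falls and 1 rise (median -0.56), where the shares of all genes were 24.1% and 25.9%. In MV-4-11 at 24 h the 8 genes had 2 falls and 2 rises with a median of 0.00. The 22 had 11 falls and 2 rises there with a median of -0.33, where 22.4% of all genes fell and 23.6% rose. ATF4 itself had 288 and 290.3 CPM at 24 h in MOLM-13 against 675 and 719.9 CPM with DMSO, 492 and 460.3 CPM in MV-4-11 against 449 and 461 CPM with DMSO, and 433 and 419 CPM in THP-1 against 355 and 343 CPM with DMSO. Its RNA was thus lower with BRM014 in MOLM-13, overlapping in MV-4-11 and higher in THP-1 at 24 h, with fold changes of -1.40 ± 0.09, -0.01 ± 0.09 (not past the test) and 0.24 ± 0.09. A link between ATF4 RNA and the 8 genes was not tested.

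NARS, the asparagine enzyme and 1 of the 8, passed the test in opposite directions in 2 lines at both times. In MOLM-13 NARS had 376 and 395 CPM at 72 h and 250.7 and 248 CPM at 24 h, against 336 and 292 CPM with DMSO. In MV-4-11 NARS had 353 and 346 CPM at 72 h and 242 and 231 CPM at 24 h, against 194 and 192 CPM with DMSO. In THP-1 NARS had 207 and 185 CPM at 72 h and 200.0 and 209 CPM at 24 h of BRM014, 332 and 313 CPM with PMA and 142 and 143 CPM with DB2313, against 263 and 271 CPM with DMSO. MV-4-11 libraries lay above DMSO at both times and THP-1 libraries below it at both, while MOLM-13 libraries lay below DMSO at 24 h and above it at 72 h. The fold changes at 72 h were 0.10 ± 0.07 in MOLM-13 (adjusted p = 0.206), 0.80 ± 0.07 in MV-4-11 (edgeR adjusted p = 4.83e-09) and -0.53 ± 0.07 in THP-1 (edgeR adjusted p = 1.61e-06), and the line difference passed the test (edgeR adjusted p = 4.28e-09). At 24 h they were -0.46, 0.22 and -0.43 (edgeR adjusted p = 1.29e-05 for the line difference). The mean over lines at 72 h, 0.12 ± 0.04 (edgeR adjusted p = 0.0105), was not past the test without the first THP-1 library of 72 h (adjusted p = 0.0544) or with no filter on low counts (adjusted p = 0.154). The rise in MV-4-11 at 24 h was lost with no filter (adjusted p = 0.0505), and without either DMSO library (adjusted p = 0.059 and 0.0617) or the first 24 h library (adjusted p = 0.105).

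MARS, the methionine enzyme of the complex, and SARS, the serine enzyme outside it, also passed the test in opposite directions at 24 h. MARS had 80.0 and 71.7 CPM at 72 h and 102 and 111 CPM at 24 h in MOLM-13, against 245 and 240.2 CPM with DMSO. In MV-4-11 MARS had 102 and 106 CPM at 72 h and 154 and 168 CPM at 24 h, against 133 and 130.0 CPM with DMSO. In THP-1 MARS had 60.1 and 66.3 CPM at 72 h and 88.7 and 99.3 CPM at 24 h of BRM014, 129 and 133 CPM with PMA and 105 and 113 CPM with DB2313, against 145 and 151 CPM with DMSO. The MV-4-11 libraries of 24 h were the only BRM014 libraries above DMSO. The fold changes at 24 h were -1.31 ± 0.08 in MOLM-13, 0.22 ± 0.08 in MV-4-11 (edgeR adjusted p = 0.0213) and -0.70 ± 0.08 in THP-1, with a line difference past the test (edgeR adjusted p = 4.45e-09), and at 72 h MARS fell in all 3 lines. The MV-4-11 rise was lost without either DMSO library (adjusted p = 0.0779 and 0.0922) or the second 24 h library (adjusted p = 0.219), and under 3 other settings. MARS exons share 519 bases with ARHGAP9 and 355 bases with DDIT3, a stress-response gene, both on the other strand. In MV-4-11 the fold change of DDIT3 was 0.24 ± 0.11 at 24 h (adjusted p = 0.08) and 2.54 ± 0.10 at 72 h. The strand setting of the counting is not given in the sources used here, and the part of reads from either gene in the MARS values was not tested.

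SARS had 82.1 and 92.9 CPM at 72 h and 105 and 102 CPM at 24 h in MOLM-13, against 143 and 136 CPM with DMSO. In MV-4-11 SARS had 106 and 103 CPM at 72 h and 114 and 109.7 CPM at 24 h, against 94.4 and 95.8 CPM with DMSO. In THP-1 SARS had 135 and 134 CPM at 72 h and 153 and 144 CPM at 24 h of BRM014, 161 and 177 CPM with PMA and 143 and 153 CPM with DB2313, against 126 and 122 CPM with DMSO. BRM014 libraries lay below DMSO in MOLM-13 and above it in the other lines, and every treated THP-1 group lay above DMSO. SARS fell, with a log2 fold change of -0.55 ± 0.08 in MOLM-13 at 24 h and rose by 0.21 ± 0.07 in THP-1 (edgeR adjusted p = 0.0215), with a line difference past the test (edgeR adjusted p = 9.42e-06). The THP-1 rise was lost without the first 24 h library (adjusted p = 0.171) or either DMSO library (adjusted p = 0.0668 and 0.102), with no filter on low counts (adjusted p = 0.107) and on the THP-1 libraries alone (adjusted p = 0.125).

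CARS, the cysteine enzyme, had the smallest mean change at 72 h, -0.08 ± 0.22 (adjusted p = 0.823). It had 24.2 and 17.5 CPM at 72 h and 24.3 and 12.8 CPM at 24 h in MOLM-13, against 15.9 and 30.8 CPM with DMSO. In MV-4-11 it had 20.4 and 10.7 CPM at 72 h and 23.0 and 16.0 CPM at 24 h, against 10.5 and 9.15 CPM with DMSO. In THP-1 CARS had 9.06 and 10.9 CPM at 72 h and 6.85 and 16.2 CPM at 24 h of BRM014, 12.5 and 11.2 CPM with PMA and 7.72 and 12.4 CPM with DB2313, against 12.3 and 14.2 CPM with DMSO. The BRM014 libraries lay above DMSO in MV-4-11 and overlapped it in MOLM-13, and in THP-1 those of 72 h lay below DMSO while the other 3 groups overlapped it, and the sign of the mean turned with the removal of single libraries. Within 200 kb of CARS, replicates lay up to 5.86-fold apart for SLC22A18AS and 2.79-fold for NAP1L4. They lay up to 1.9-fold apart for SLC22A18, 1.43-fold for KCNQ1 and 1.16-fold for OSBPL5.

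Among the mitochondrial members, MARS2, which charges methionine, fell the most. It had 11.2 and 12.4 CPM at 72 h and 19.98 and 17.8 CPM at 24 h in MOLM-13, against 48.5 and 38.7 CPM with DMSO. In MV-4-11 MARS2 had 15.5 and 15.2 CPM at 72 h and 25.2 and 28.0 CPM at 24 h, against 53.1 and 53.7 CPM with DMSO. In THP-1 MARS2 had 12.1 and 10.5 CPM at 72 h and 8.57 and 8.16 CPM at 24 h of BRM014, 26.1 and 24.5 CPM with PMA and 18.1 and 20.6 CPM with DB2313, against 35.9 and 36.9 CPM with DMSO. All treated groups lay below DMSO with no overlap, and in THP-1, unlike the other lines, the 24 h libraries were the lower. The fold change was -1.90 ± 0.07 at 72 h (edgeR adjusted p = 1.12e-15) and -1.52 ± 0.07 at 24 h (edgeR adjusted p = 7.71e-14), against -1.19 and -0.60 for its cytosolic counterpart MARS.

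The cytosolic fold change at 72 h was lower than the mitochondrial one for some amino acids and higher for others. It was lower for phenylalanine (-2.06 for FARSA beside -0.35 for FARS2), proline (-1.46 for EPRS beside -0.48 for PARS2) and isoleucine (-1.30 for IARS beside -0.33 for IARS2). It was higher for asparagine (0.12 for NARS beside -0.66 for NARS2) and methionine (-1.19 for MARS beside -1.90 for MARS2). The same held for serine (-0.25 for SARS beside -0.54 for SARS2), among others. These differences were not tested. EARS2, TARS2 and WARS2, which charge glutamate, threonine and tryptophan, fell, with fold changes of -1.37, -1.23 and -1.03 at 72 h, and AARS2, CARS2, IARS2, LARS2, NARS2, PARS2, SARS2 and YARS2 fell, with fold changes between -0.90 and -0.33.

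RARS2, the mitochondrial arginine enzyme, rose. It had 63.1 and 64.2 CPM at 72 h and 62.2 and 55.7 CPM at 24 h in MOLM-13, against 41.7 and 39.4 CPM with DMSO. In MV-4-11 RARS2 had 51.0 and 50.7 CPM at 72 h and 50.9 and 48.2 CPM at 24 h, against 36.0 and 37.2 CPM with DMSO. In THP-1 RARS2 had 73.9 and 75.7 CPM at 72 h and 68.0 and 66.3 CPM at 24 h of BRM014, 57.2 and 57.9 CPM with PMA and 54.6 and 61.6 CPM with DB2313, against 61.8 and 63.0 CPM with DMSO. BRM014 libraries lay above DMSO in all 3 lines, by the least in THP-1. RARS2 rose by 0.35 ± 0.05 at 72 h (edgeR adjusted p = 8.00e-07) and 0.28 ± 0.05 at 24 h on the mean of lines, while the THP-1 values of 0.17 ± 0.08 at 72 h (adjusted p = 0.0586) and 0.06 ± 0.08 at 24 h (adjusted p = 0.564) were not past the test. Cytosolic RARS fell, with a log2 fold change of -0.53 ± 0.05 at 72 h.

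PARS2, the mitochondrial proline enzyme, is a gene of low level. In THP-1 it had 7.30 and 6.56 CPM at 72 h and 1.46 and 2.04 CPM at 24 h of BRM014, 6.24 and 5.90 CPM with PMA and 12.4 and 12.04 CPM with DB2313, against 6.83 and 8.81 CPM with DMSO. In MOLM-13 PARS2 had 7.51 and 6.39 CPM at 72 h and 5.89 and 7.41 CPM at 24 h, against 8.18 and 9.12 CPM with DMSO. In MV-4-11 PARS2 had 7.16 and 8.05 CPM at 72 h and 8.59 and 10.1 CPM at 24 h, against 10.0 and 13.4 CPM with DMSO. The 2 THP-1 libraries of 24 h were the lowest of all 22, while those of 72 h overlapped DMSO and those of DB2313 were above it. PARS2 fell, with a log2 fold change of -2.20 ± 0.23 at 24 h in THP-1 (edgeR adjusted p = 1.53e-07) and its difference of 72 h from 24 h was 1.94 ± 0.24 (edgeR adjusted p = 3.40e-06). The effect at 24 h differed between lines (edgeR adjusted p = 1.35e-04). Of the partners of mitochondrial synthetases, the amidotransferase genes GATB and QRSL1, which help to make glutaminyl-tRNA in mitochondria, fell, with fold changes of -0.89 and -0.77 on the mean of lines at 72 h.

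**Figure D4:**
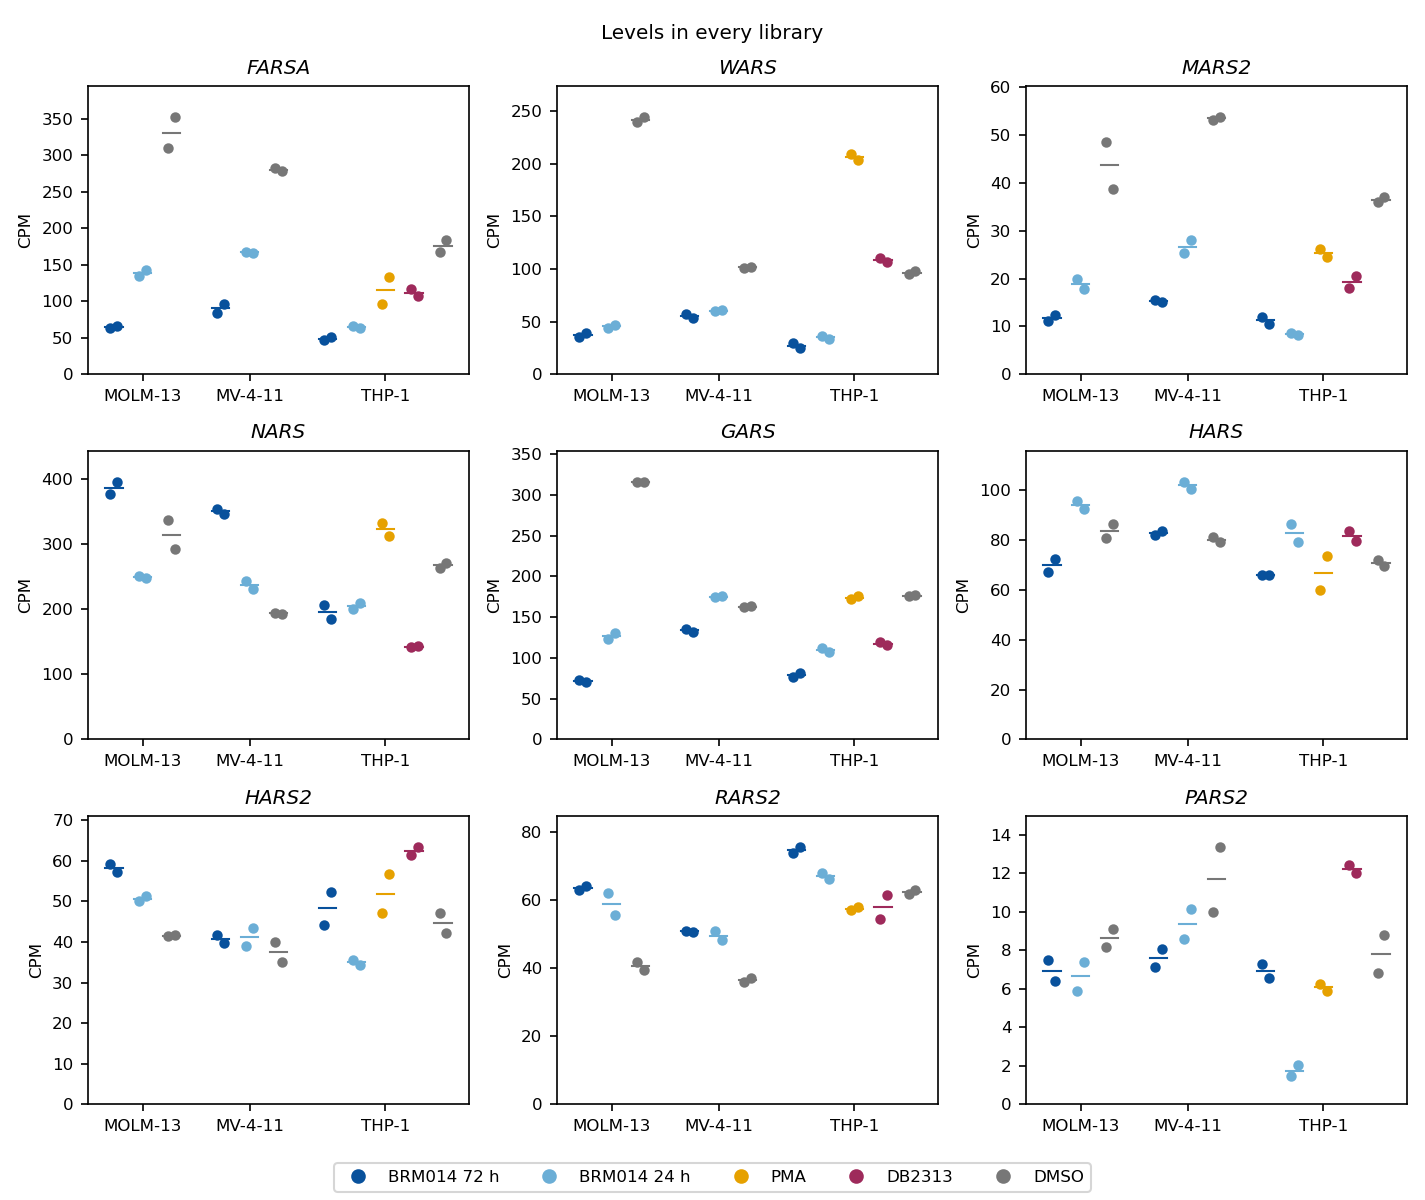
CPM in every library for 9 synthetase genes, with points for the 2 replicates, a bar at their mean, and groups in the order BRM014 72 h, BRM014 24 h, PMA and DB2313 (THP-1 only) and DMSO within each line; each panel has its own axis from 0. FARSA, WARS and MARS2 lie below DMSO in every BRM014 group, RARS2 lies above it, NARS goes different ways in the 3 lines, and PARS2 is lowest in THP-1 cells at 24 h.

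HARS and HARS2, the cytosolic and mitochondrial histidine enzymes, lie head to head on chromosome 5, with RefSeq starts 85 bases apart. The stretch that their promoter windows share is shown on the plus strand (GRCh38.p14), with matches to the ETS core CCGGAAG on either strand in capitals, HARS starting at base 140691370 and running left, and HARS2 starting at base 140691455 and running right.
HARS and HARS2 chr5:140691321-140691504 plus strand: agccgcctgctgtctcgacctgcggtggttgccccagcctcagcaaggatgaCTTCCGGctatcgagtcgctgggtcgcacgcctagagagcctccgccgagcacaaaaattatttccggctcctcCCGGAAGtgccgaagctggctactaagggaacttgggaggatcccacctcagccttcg
CCGGAAG was found in 19 of 39 member windows (48.7%) and 10.3% of all windows, CACGTG, which MYC binds, in 5 (12.8%) and 7.26%, and GCGCNTGCG, the pattern bound by NRF1, in 10 (25.6%) and 7.47%, each on both strands. A start within 1000 bases of a start on the opposite strand was found for 11 of 37 members (29.7%) and 13% of 19227 protein-coding genes.

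HARS had 67.2 and 72.3 CPM at 72 h and 95.6 and 92.5 CPM at 24 h in MOLM-13, against 80.5 and 86.1 CPM with DMSO. In MV-4-11 HARS had 82.1 and 83.7 CPM at 72 h and 103 and 100.4 CPM at 24 h, against 81.0 and 79.2 CPM with DMSO. In THP-1 HARS had 65.8 and 66.0 CPM at 72 h and 86.5 and 78.9 CPM at 24 h of BRM014, 59.8 and 73.7 CPM with PMA and 83.5 and 79.5 CPM with DB2313, against 71.8 and 69.5 CPM with DMSO. The 24 h libraries were above DMSO in every line, and the 72 h libraries below it in MOLM-13 and THP-1 and just above it in MV-4-11. HARS rose by 0.17 ± 0.05 at 24 h (edgeR adjusted p = 0.011) and fell, with a log2 fold change of -0.21 ± 0.05 at 72 h (edgeR adjusted p = 0.00147) on the mean of lines, and the 72 h call was lost with library size alone as the scale (-0.10, adjusted p = 0.0758). In MV-4-11 the 24 h rise of 0.27 was lost without any 1 of the 4 libraries compared (adjusted p between 0.0534 and 0.0969).

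HARS2 had 59.2 and 57.2 CPM at 72 h and 50.1 and 51.2 CPM at 24 h in MOLM-13, against 41.4 and 41.7 CPM with DMSO. In MV-4-11 HARS2 had 41.7 and 39.7 CPM at 72 h and 39.1 and 43.5 CPM at 24 h, against 40.02 and 35.1 CPM with DMSO. In THP-1 HARS2 had 44.2 and 52.4 CPM at 72 h and 35.6 and 34.4 CPM at 24 h of BRM014, 47.2 and 56.6 CPM with PMA and 61.4 and 63.4 CPM with DB2313, against 47.2 and 42.2 CPM with DMSO. Both BRM014 groups lay above DMSO in MOLM-13, groups overlapped in MV-4-11, and in THP-1 the 24 h libraries were lowest and those of DB2313 highest. The mean over lines was 0.13 ± 0.06 at 72 h (adjusted p = 0.0735) and -0.06 ± 0.06 at 24 h (adjusted p = 0.483), neither past the test. HARS and HARS2 exons share 437 bases, so reads there could be dropped or assigned to either gene.

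Between the 2 times, with no DMSO library involved, 24 members fell and 1 rose at 72 h against 24 h in MOLM-13, beside 22.7% and 20.8% of all genes. In MV-4-11 23 fell and 2 rose, beside 16.9% and 18.6% of all genes, with 1 rise without the first 24 h library or either 72 h library. In THP-1 11 fell and 5 rose, beside 16.5% and 16.2%, and all 5 rises were mitochondrial (EARS2, HARS2, MARS2, NARS2 and PARS2), while 9 of the 11 falls were cytosolic. PARS2 held past the test under each setting run and the other 4 rises did not, so that without any 1 of the 4 libraries compared 2 or 3 rose. NARS rose between the times in MOLM-13 (0.56 ± 0.07) and MV-4-11 (0.58 ± 0.07).

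With PMA the members were called about as often as all genes. Against DMSO 8 of the 37 fell and 4 rose, beside 17.1% and 18.9% of all genes, and the median of the members was -0.12 beside -0.02 for all genes. WARS, SARS and NARS rose the most, by 1.18 ± 0.08, 0.54 ± 0.07 (edgeR adjusted p = 8.82e-06) and 0.36 ± 0.07 (edgeR adjusted p = 3.92e-04), and HARS2 by 0.31 ± 0.10 (edgeR adjusted p = 0.0263). FARSA and MARS2 fell, with fold changes of -0.52 ± 0.12 (edgeR adjusted p = 0.00163) and -0.44 ± 0.11 (edgeR adjusted p = 0.00392). The counts with PMA were 5 falls and 5 rises without the first PMA library and 12 falls and 3 rises without the second, and the FARSA fold change was -0.29 without the first (adjusted p = 0.0268). Scaling by library size alone gave 12 falls and 3 rises of members, and 3795 falls and 2640 rises over all genes, where TMM scaling gave 2880 falls and 3177 rises. The HARS2 rise was lost without the second PMA library (adjusted p = 0.325) or the second DMSO library (adjusted p = 0.211).

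The DB2313 libraries showed a broad fall in THP-1, where the compound cannot be told apart from a possible batch. Against DMSO 29 members fell and 3 rose, beside 29.5% and 35.9% of all genes, with a median of -0.69 beside 0.14 for all genes. All 8 complex synthetases fell, with a median of -0.96, and 7 of the 12 other cytosolic genes fell and 1 rose. FARSB, LARS and EPRS fell the most, as given above, and the mitochondrial genes WARS2 (-1.67 ± 0.17) and EARS2 (-1.51 ± 0.11) also fell. The 3 rises were PARS2 at 0.56 ± 0.20 (edgeR adjusted p = 0.0187), HARS2 at 0.41 ± 0.10 (edgeR adjusted p = 0.00168) and SARS at 0.18 ± 0.07 (edgeR adjusted p = 0.0355). The SARS rise was lost without any 1 of the 4 libraries compared (adjusted p between 0.0584 and 0.158) and the PARS2 rise without the first DMSO library (adjusted p = 0.177) or the first DB2313 library (adjusted p = 0.08), and without the first DMSO library 1 member rose.

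Set directly against DB2313 at the same 72 h, BRM014 left 13 members lower and 15 higher, beside 30.9% and 30.4% of all genes, with a median difference of -0.02. The compounds differed in dose, 1 µM of BRM014 and 3 µM of DB2313, and in target, and here too a possible batch cannot be told apart from the compound. Of the complex synthetases 1 was lower with BRM014 (MARS) and 5 were higher (DARS, EPRS, LARS, QARS and RARS), led by LARS at 1.05 ± 0.08 (edgeR adjusted p = 4.86e-10). Of the other cytosolic genes 7 were lower and 2 higher, led by WARS at -2.00 and FARSA at -1.20 ± 0.12 (edgeR adjusted p = 5.82e-08), with FARSB going the other way at 0.69 ± 0.08 (edgeR adjusted p = 1.80e-07). The 2 chains of phenylalanyl-tRNA synthetase were thus ordered differently by the 2 compounds. VARS, also among the 7 at -4.03, was lost without either library of 72 h (adjusted p = 0.114 and 0.155) or the first DB2313 library (adjusted p = 0.178).

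**Figure D5:**
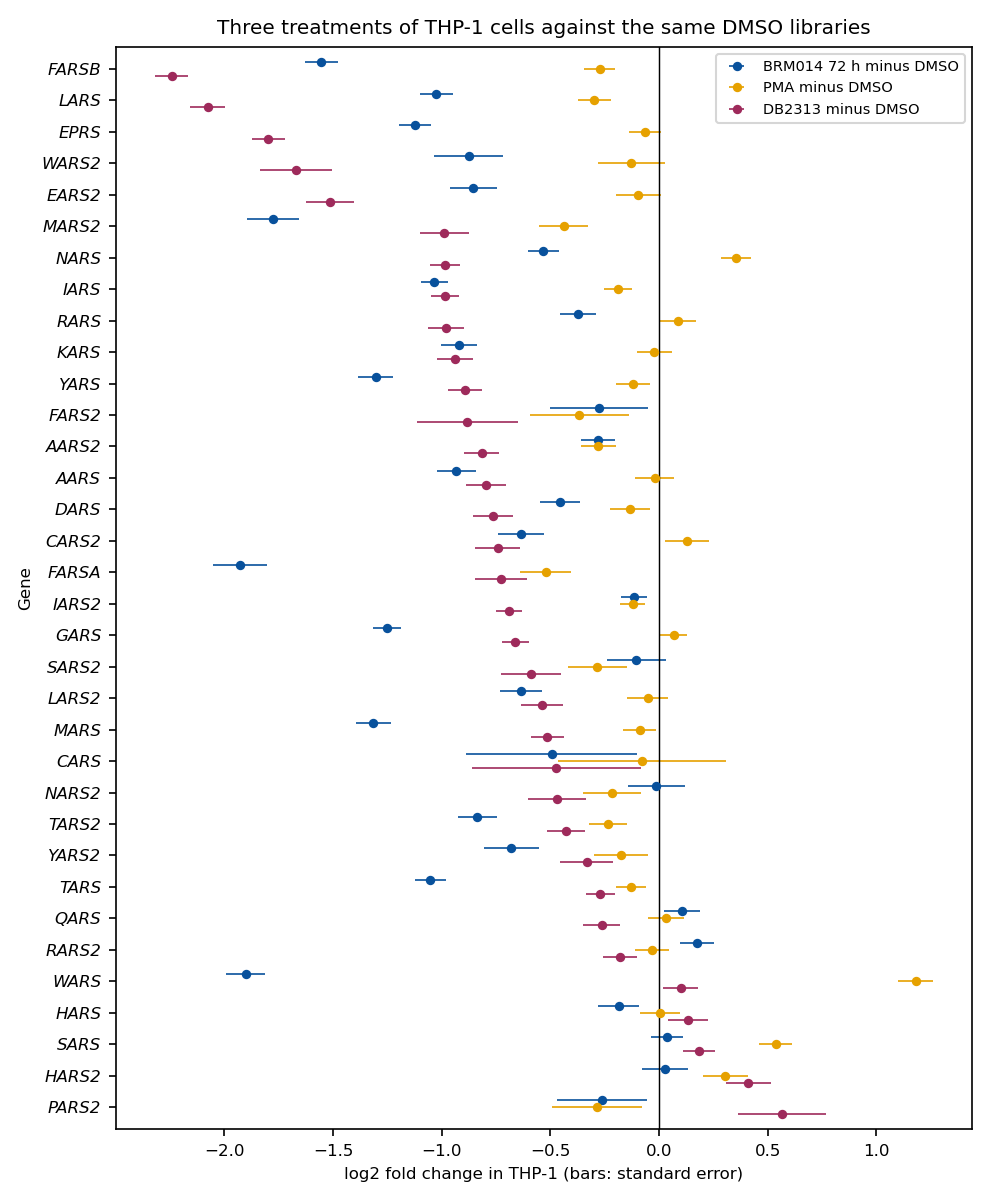
log2 fold change against the shared DMSO libraries for BRM014 at 72 h, PMA and DB2313 in THP-1 cells (points; bars are standard errors) for 34 synthetase genes ordered by the DB2313 value; VARS and VARS2 are not drawn. Most BRM014 and DB2313 points lie left of 0 and PMA points near it, WARS lies at 1.18 with PMA and -1.90 with BRM014, and FARSB and LARS lie beyond -2 with DB2313.

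Other genes of the same pathway gave this background at 72 h of BRM014 on the mean of lines, where 30.4% of all genes fell and 34.9% rose. MYC fell, with a log2 fold change of -5.04 ± 0.05 (edgeR adjusted p = 5.91e-23), with 8.75 and 9.90 CPM in MOLM-13 against 674 and 716 CPM with DMSO, and fold changes of -0.92 ± 0.08 with PMA and -1.82 ± 0.08 with DB2313. All 13 genes on a list of MYC and its textbook targets fell (median -1.61). With DB2313 12 of them fell and with PMA 8, beside 29.5% and 17.1% of all genes. Of 19 genes for tRNA transcription by RNA polymerase III, 14 fell and 1 rose (median -0.42), and of 17 tested for tRNA end processing, splicing and export 16 fell and 0 rose (median -0.54). The cytosolic elongation factors had 5 falls of 6 (median -1.18) and the mitochondrial ones 4 of 4 (median -0.61). ATF4 programme genes split, with 13 falls and 7 rises of 24 (median -0.42), 17 and 4 in MOLM-13 (median -1.75), and 8 and 10 in MV-4-11 (median 0.06). Over all genes, 29.4% fell and 30.3% rose in MOLM-13, and 26.1% and 28.4% in MV-4-11. The eIF2 kinase and phosphatase genes gave 4 falls and 3 rises of 8, mitochondrial tRNA amidation and formylation genes 3 falls of 4 (median -0.54), and synthetase-like and editing genes 2 falls and 1 rise of 5 tested.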

How the data were processed

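Reads were aligned with HISAT2 2.1.0 to hg38 and counted with HTSeq, per the submitters' processing notes, and the deposited values are whole-number counts per gene symbol with no normalization. The strand setting and the annotation used for counting are not given in the sources used here. The 5 summary lines of each table were left out of library sizes; reads with no feature came to 12.03% to 19.17% and ambiguous reads to 3.041% to 3.82%. CPM was computed here from the deposited counts as counts scaled to the total reads in genes, and CPM per kb with exon lengths from GENCODE release 29.

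All 22 libraries were fitted together with edgeR 4.0.16 (R 4.3.3), with TMM scaling, a filter at a minimum count of 10, 1 coefficient per group and quasi-likelihood testing, p-values adjusted by Benjamini-Hochberg over 16794 genes and a threshold of 0.05. Each standard error was obtained as |log2 fold change| over √F. The procedure was tested on simulated data. DESeq2 1.42.0, other scalings, other filters, a replicate block, the line's libraries alone and the removal of each library were alternatives.

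The members and lists were chosen with earlier results of these data known. Values in every library are given for the 3 called members that rose or fell most on the mean of lines at each time, with PMA and with DB2313, the member that changed least at 72 h, those called in opposite directions in 2 lines, and HARS, HARS2, GARS, KARS and WARS. The values of 1 member are not reported here, though it is in every count, sum and median. Promoter windows come from RefSeq (GRCh38.p14), 250 bases before to 50 after a start.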

Additional observations from a re-analysis of the deposited data

Results flagged for a closer look

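The effect of BRM014 differed between the 3 lines, by an F test of the difference itself with edgeR and adjustment over all genes, for 27 members at 72 h and 25 members at 24 h. It also differed for 52.9% and 43.5% of all genes tested at these times. NARS passed that test at 72 h (edgeR adjusted p = 4.278e-09), with fold changes of 0.10 in MOLM-13, 0.80 in MV-4-11 and -0.53 in THP-1, and at 24 h (edgeR adjusted p = 1.286e-05), with -0.46, 0.22 and -0.43 in the same lines. MARS passed it at 24 h (edgeR adjusted p = 4.453e-09), with -1.31 in MOLM-13, 0.22 in MV-4-11 and -0.70 in THP-1. SARS passed it at 24 h (edgeR adjusted p = 9.424e-06), with -0.55 in MOLM-13, 0.16 in MV-4-11 and 0.21 in THP-1. These genes drew attention because they passed the test against DMSO in opposite directions in 2 lines at the same time. With 2 libraries per group, no search for single outlying libraries was made.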

How the results depend on the processing

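Of 208 recomputed counts of members called in either direction, 0 moved by more than 1.5 times, and likewise 0 of 208 for all genes. Only the total called was compared, so a shift between falls and rises, as seen with PMA, did not count. Where nearly all members were called, a rise of 1.5 times was not possible. Of 360 called fold changes of members recomputed 4456 times, 4296 kept direction and call, 160 (59 results) kept direction and lost the call, and 0 reversed. Replicate numbers did not pair the libraries (correlations of deviations between -0.044 and 0.087), and the replicate block gave 34 members called on the mean of lines at 72 h, 29 at 24 h, 12 with PMA and 31 with DB2313. Of the uncalled fold changes only 11 were checked, those of HARS, HARS2, GARS, KARS, WARS and CARS on the mean of lines, with PMA or with DB2313. Among these, 18 of 153 recomputed values reversed, and other uncalled fold changes were not checked. Library size alone turned HARS2 at 24 h to 0.024 (reported -0.057), CARS at 72 h to 0.029 (reported -0.085), GARS with PMA to -0.019 (reported 0.067) and HARS with PMA to -0.083 (reported 0.005). HARS with PMA was also -0.011 with no filter, -0.023 at a minimum count of 50 and -0.02 on the line's libraries alone. Without 1 library, CARS ran between -0.27 and 0.106 at 72 h, between -0.177 and 0.264 at 24 h (reported 0.072) and between -0.182 and 0.039 with PMA (reported -0.078), HARS with PMA between -0.181 and 0.171, and KARS with PMA between -0.123 and 0.07 (reported -0.023). The cause was not tested. With 2 libraries per group, leaving 1 out assumes that the lone library varies like the other groups.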
